A study of Schizosaccharomyces pombe with 15 samples.

Results

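Sucrose is the main sugar of molasses, and fission yeast uses it mainly after it has been split outside the cell. inv1 encodes the secreted invertase, which splits sucrose outside the cell into glucose and fructose. agl1 encodes a secreted alpha-glucosidase (maltase), mal1 an alpha-glucosidase that splits maltose, and sut1 the membrane carrier that brings alpha-glucosides such as maltose and sucrose into the cell. Scr1 is a zinc finger repressor related to Mig1 of budding yeast, a family that binds GC-rich sequences and represses genes for other carbon sources while glucose is plentiful, with the invertase gene as its classic target in both yeasts. The binding of Scr1 at these 4 genes, of 5113 protein-coding genes on the 3 chromosomes, is described here from chromatin immunoprecipitation and sequencing (ChIP-seq).

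Scr1 carried a tandem affinity purification (TAP) tag and was pulled down through the protein A part of that tag. The data comprised 3 groups of 2 biological replicates. The first was Wilmar-P, an industrial isolate used to ferment sugarcane molasses (mating type h90), shifted to molasses medium. It was set against the laboratory strain 972h- in the same medium, whose labeled genotype is h+ with the alleles ade6-m216, leu1-32 and ura4-d18, and against Wilmar-P in 3% glucose. Both strains carried the tagged gene as scr1::TAP-KanMX6. All cells were grown on glucose first and crosslinked 4 h after the shift. The strains differ in auxotrophies and mating type as well as in background, and the labels give both h- and h+ for the laboratory strain. RNA polymerase II and input samples, which make up the rest of the 15 samples, were not analysed here.

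For each gene, peaks were taken from each of the 6 lists where the summit, the position of highest enrichment in a peak, lay in the gene or within 2000 bp upstream of its annotated start. Fold enrichment is the ratio of the Scr1 signal at the summit to the local background, and the rank orders the peaks of a list by p, 1 being the lowest p. The lists held 961 and 1073 peaks in Wilmar-P on molasses, 4239 and 4479 in laboratory S. pombe on molasses, and 386 and 228 in Wilmar-P on glucose. Median fold enrichment was 3.69 and 2.74, 1.77 and 1.80, and 3.52 and 5.46 in the same order. The laboratory lists were thus the longest and held mostly weak peaks, and the read depth behind each list is unknown. With 2 replicates against 2, an exact two-sided permutation test cannot go below p = 0.33, so differences are given as values with the replicate spread and with no test.

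The peaks of the 4 genes numbered 4 and 4 in Wilmar-P on molasses, 14 and 13 in laboratory S. pombe on molasses, and 4 and 4 in Wilmar-P on glucose. In Wilmar-P every one of them lay upstream of inv1 or agl1, in both media, and none lay at mal1 or sut1. In laboratory S. pombe all 4 genes had a peak in both replicates (3 when a −log10 q of at least 5 was required, without sut1, and 3 with upstream summits alone, without mal1), but the strong ones were again upstream of inv1, and those at mal1 and sut1 were weak.

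**Figure D1:**
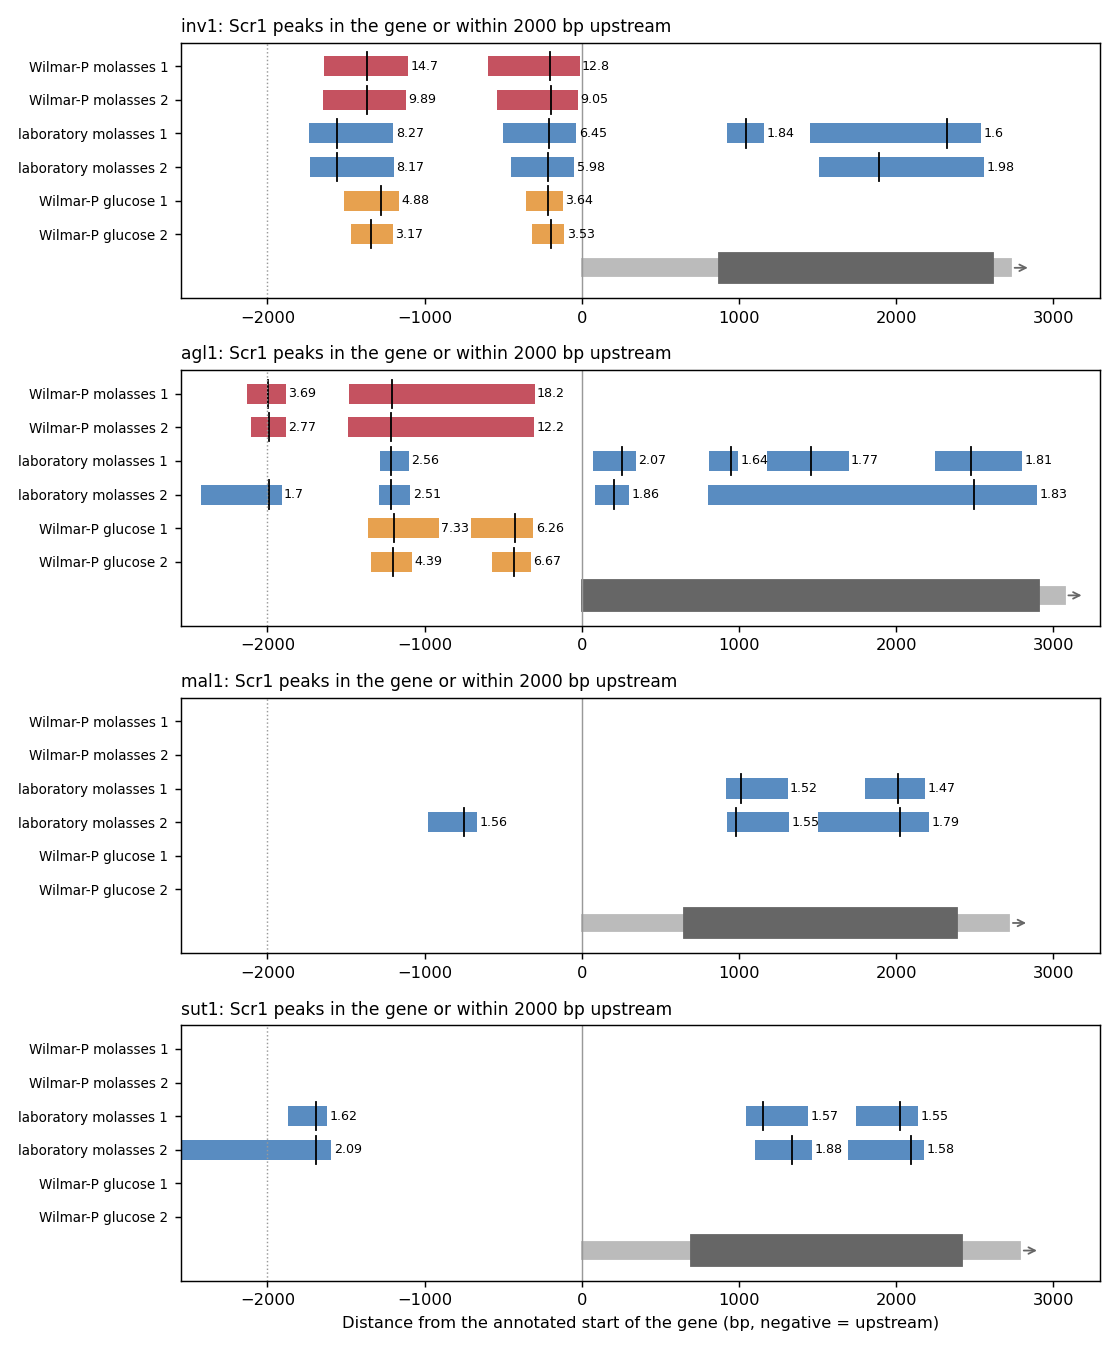
Scr1 peaks at inv1, agl1, mal1 and sut1 by distance from the annotated start (bp, negative upstream), in the 6 lists. Bars span the peaks, black ticks are summits, numbers are fold enrichment, the light grey box is the gene and the dark box its coding span. Only the laboratory lists have peaks at mal1 and sut1, with fold enrichment of at most 2.09.

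Against the background of all protein-coding genes, a peak in both replicates was found for 2 of the 4 genes in Wilmar-P on molasses, where 17.6% of all genes had one. The count was 4 of 4 in laboratory S. pombe on molasses against 69.3% of all genes, and 2 of 4 in Wilmar-P on glucose against 4.93% of all genes. When each list was reduced to its 228 strongest peaks, the length of the shortest list, the counts were 2 of 4 against 5.26%, 1 of 4 (inv1) against 4.05%, and 2 of 4 against 4.52% of all genes in the same order. A gene with peaks in neither Wilmar-P replicate and in both laboratory replicates on molasses, as mal1 and sut1, was common, at 50.4% of all genes. The reverse, peaks in both Wilmar-P replicates on molasses and in neither laboratory replicate, held for 0 of 4 and 1.55% of all genes, and peaks in both molasses but neither glucose replicate of Wilmar-P for 0 of 4 and 10.3%. Peaks in both glucose and neither molasses replicate of Wilmar-P held for 0 of 4 and 0.0587% of all genes.

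The sequences under the upstream peaks are shown because they hold the motif matches nearest to the summits. They are the reference (laboratory) sequence, read 5′ to 3′ on the strand of the gene, with coordinates on the chromosomes of ASM294, and the bases of Wilmar-P may differ. Mig1-type motifs were searched on both strands as CCGGGG, as the variant CTGGGG, as the variant GCGGGG or as the variant GTGGGG, and matches are in capitals. A GTGGGG on the strand opposite to the gene is printed as CCCCAC.

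The 300 bases around the distal inv1 summits, III:1721866-1722165, plus strand, hold a pair of matches at bases 185 to 190 and 195 to 200 of the stretch:
inv1 distal: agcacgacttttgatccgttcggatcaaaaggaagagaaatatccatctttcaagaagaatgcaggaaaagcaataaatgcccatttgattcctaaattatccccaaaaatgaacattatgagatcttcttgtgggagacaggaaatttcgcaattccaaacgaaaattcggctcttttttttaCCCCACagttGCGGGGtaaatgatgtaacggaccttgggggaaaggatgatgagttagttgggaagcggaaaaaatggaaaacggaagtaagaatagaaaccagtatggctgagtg

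The 200 bases around the proximal inv1 summits, III:1723131-1723330, plus strand, hold no match to these letters. The capitals there mark the only match to wider letters, in which the fifth base is A (CCGGAG, the variant CTGGAG, the variant GCGGAG and the variant GTGGAG). These were added after the first search had been seen, and the match reads GCGGAG on the minus strand:
inv1 proximal: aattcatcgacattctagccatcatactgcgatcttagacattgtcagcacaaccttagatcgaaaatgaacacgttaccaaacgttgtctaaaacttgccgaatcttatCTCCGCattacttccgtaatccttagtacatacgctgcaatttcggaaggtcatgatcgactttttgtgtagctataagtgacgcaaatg

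Upstream of agl1, on the minus strand, the stretches around the distal summits (I:2972093-2972292) and at the match next to the proximal glucose summits (I:2971424-2971453, a stretch that ends short of those summits) hold 3 of the 7 matches found there, each of them GTGGGG on the strand opposite to the gene:
agl1 distal: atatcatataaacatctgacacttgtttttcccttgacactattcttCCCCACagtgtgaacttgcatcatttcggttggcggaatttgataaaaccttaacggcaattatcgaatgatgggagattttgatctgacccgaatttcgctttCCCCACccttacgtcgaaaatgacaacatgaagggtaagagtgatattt
agl1 proximal: caaaagtttctcCCCCACttttataaggtt

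inv1 (SPCC191.11, III:1723434-1726164, plus strand) has 1 coding exon, which starts at 1724306, and Scr1 had 2 places upstream of it in all 6 lists. A place joins summits of any list that lie at most 200 bp from the next summit. The proximal place lay between genes. Its summit was 204 and 194 bp upstream of the start in Wilmar-P on molasses, 206 and 213 bp in laboratory S. pombe on molasses, and 214 and 196 bp in Wilmar-P on glucose. The 6 summits thus fell within 20 bp of each other, and the GCGGAG match printed above, at III:1723241-1723246, was 1 to 21 bp from each of them. With the wider letters a match is common, in 24.6% to 51.8% of the windows of 100 bp to each side of the summits of a list and in 12.4% of windows of the same length directly upstream of all genes.

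Fold enrichment at the proximal inv1 place was 12.8 and 9.05 in Wilmar-P on molasses, against 6.45 and 5.98 in laboratory S. pombe on molasses. On this scale the values of the strains did not overlap, and the ratio of their means was 1.76. Scaled to the strongest peaks of each list, as described with the ranks, the order of the strains at inv1 turned and the media overlapped. In Wilmar-P on glucose the same place had 3.64 and 3.53, below both molasses replicates, for a molasses over glucose ratio of 3.05. Peak width followed the same order, at 584 and 516 bp, 467 and 403 bp, and 235 and 208 bp. The −log10 p was 508 and 545 in Wilmar-P on molasses, 364 and 339 in the laboratory strain, and 15.6 and 9.27 in Wilmar-P on glucose. These values move with depth as well as with enrichment.

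The distal inv1 place lay inside the coding exon of the neighboring gene SPCC191.10, which is read in the same direction as inv1, and under the noncoding RNA SPNCRNA.1223. Fold enrichment there was 14.7 and 9.89 in Wilmar-P on molasses, against 8.27 and 8.17 in laboratory S. pombe on molasses. It was 4.88 and 3.17 in Wilmar-P on glucose. The order of the groups was that of the proximal place with no overlap between groups, and the ratios of the means were 1.5 for Wilmar-P over laboratory S. pombe and 3.06 for molasses over glucose.

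**Figure D2:**
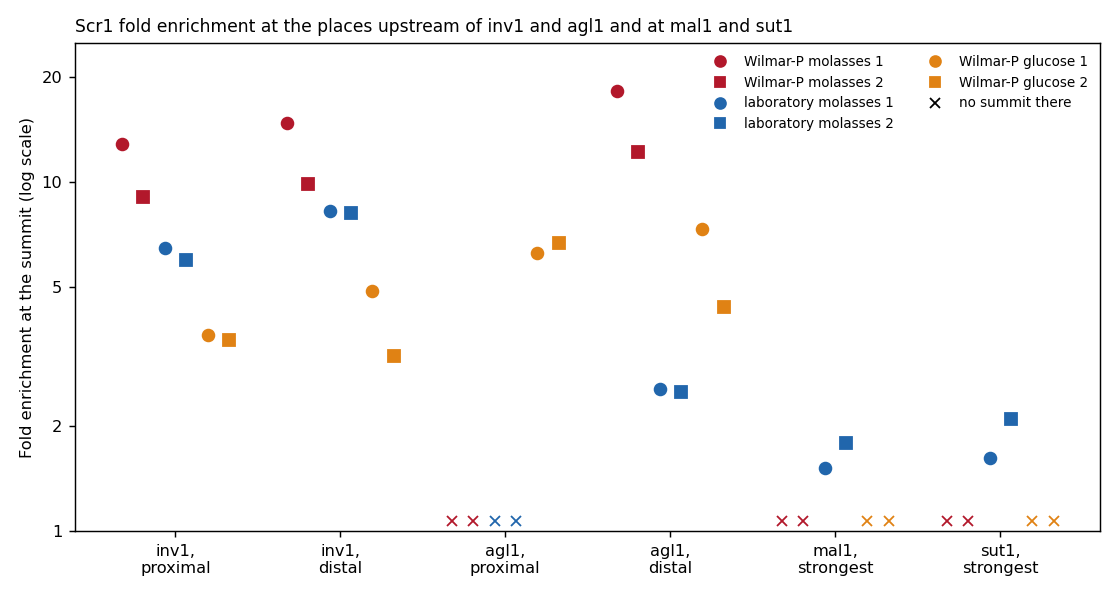
Scr1 fold enrichment at the summit (log scale) at the 2 places upstream of inv1 and of agl1, and for the strongest peak of mal1 and sut1, by group, with circles for replicate 1 and squares for replicate 2. Crosses mark lists with no summit there. At the distal agl1 place the Wilmar-P molasses values (18.2 and 12.2) stand farthest above the laboratory values (2.56 and 2.51).

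The strains differed in where the distal inv1 peak had its summit. It was 1368 and 1364 bp upstream of the start in Wilmar-P on molasses, against 1560 and 1557 bp in laboratory S. pombe on molasses. In Wilmar-P on glucose it was 1277 and 1343 bp upstream. The replicates of each strain on molasses thus lay 4 and 3 bp apart, while the strains lay 192.5 bp apart, against 10.5 bp at the proximal place. The Mig1-type pair, GTGGGG on the minus strand at III:1722050-1722055 and GCGGGG on the plus strand at III:1722060-1722065, was 1 to 15 bp from the Wilmar-P molasses summits. It was 173 to 186 bp from the laboratory summits and 26 to 102 bp from the glucose summits.

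To set this distance against other regions, all 272 regions were measured in which the peak of each of the 4 molasses lists overlapped exactly 1 peak of every other. The median distance between strains was 19.25 bp, and 49 regions (18.0%) had a distance at least as large as the distal inv1 place. Among the 67 regions with laboratory fold enrichment of at least 4, as at inv1, the median was 9 bp and 3 regions (4.48%), the distal inv1 place included, reached it. With replicates at most 10 bp apart within each strain besides, 2 of 25 regions did, the distal inv1 place again included. That place was singled out for its distance and meets both limits itself, so these shares are a description and not a test. The lists hold no signal track, so whether the laboratory peak has a lower second summit at the motif pair, or the sequences of the strains differ there, was not tested.

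**Figure D3:**
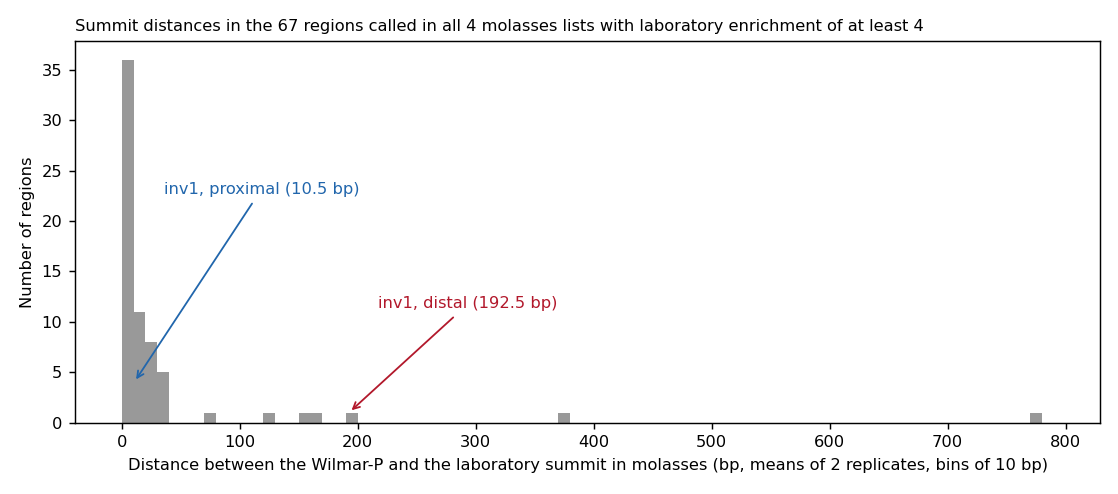
Number of regions by the distance between the Wilmar-P and the laboratory summit on molasses (bp, means of 2 replicates), for the 67 regions with laboratory fold enrichment of at least 4. The distal inv1 place, at 192.5 bp, lies outside the main body of the distribution, and the proximal place, at 10.5 bp, lies within it.

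By rank the inv1 peaks stood nearer the top in laboratory S. pombe. The proximal peak ranked 141 and 158 in Wilmar-P on molasses and 48 and 43 in laboratory S. pombe on molasses. The distal peak ranked 174 and 198 in Wilmar-P and 46 and 35 in laboratory S. pombe. In Wilmar-P on glucose the ranks were 215 and 197 for the proximal peak and 157 and 194 for the distal one, in lists of 386 and 228 peaks. So the strain with the lower fold enrichment at inv1 had the higher place within its own list. Of the 763 genes with a peak in all 4 molasses lists, 63.7% ranked nearer the top in both Wilmar-P replicates than in either laboratory replicate. These included agl1 but not inv1. For molasses against glucose in Wilmar-P the share was 26.1% of 249 genes, with neither inv1 nor agl1 among them. The 228 strongest peaks had a median fold enrichment of 17.4 and 13.2 in Wilmar-P on molasses, against 4.05 and 3.58 in the laboratory strain and 5.12 and 5.46 in Wilmar-P on glucose. With each list divided by this median, the Wilmar-P over laboratory ratio was 0.435 at the proximal and 0.369 at the distal inv1 place, the opposite direction to the deposited values and with no overlap between the replicates of the strains. The same division acts on every gene. Over the 763 genes with a peak in all 4 molasses lists, the undivided ratio had a median of 2.25 and an upper quartile of 3.94. How many of them turn was not counted, so the turn is not shown to be particular to inv1. The 228 peaks are also a larger part of the Wilmar-P lists than of the laboratory lists. Divided in this way, the molasses over glucose ratio was 1.05 at the proximal and 1.04 at the distal place, with overlapping replicates. The strongest inv1 peak gave 0.927 between media, but that value sets the proximal peak on molasses against the distal one on glucose.

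Scr1 peaks in the body of inv1 were seen in laboratory S. pombe alone, with fold enrichment of 1.84 and 1.60 in replicate 1 and 1.98 in replicate 2. Their summits, 1042 to 2325 bp past the start, differed between the replicates. The peaks with 1.60 and 1.98 nonetheless overlapped, with summits 2325 and 1894 bp past the start.

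agl1 (SPAPB24D3.10C, I:2967916-2970988, minus strand) is annotated with its start at the first coding base, so the positions upstream of it count from the coding sequence. Its distal place was called in all 6 lists, under the noncoding RNA SPNCRNA.866, with summits 1207 and 1213 bp upstream in Wilmar-P on molasses, 1215 and 1211 bp in laboratory S. pombe on molasses, and 1194 and 1200 bp in Wilmar-P on glucose. The 6 summits fell within 21 bp of each other, between the GTGGGG matches at I:2972136-2972141 and I:2972240-2972245.

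The fold enrichment at the distal agl1 place was 18.2 and 12.2 in Wilmar-P on molasses, against 2.56 and 2.51 in laboratory S. pombe on molasses. The ratio of the means was 5.99, larger than at either inv1 place, with no overlap. In Wilmar-P on glucose the place had 7.33 and 4.39, below both molasses replicates of Wilmar-P and above both laboratory replicates, and the molasses over glucose ratio was 2.59 on the deposited scale. The peak was 1185 and 1182 bp wide in Wilmar-P on molasses, against 187 and 203 bp in laboratory S. pombe, and 452 and 258 bp on glucose.

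In Wilmar-P on glucose a separate proximal peak of agl1 had its summit 425 and 431 bp upstream, with fold enrichment of 6.26 and 6.67, and 1 GTGGGG match (I:2971436-2971441) lay 23 and 17 bp from those summits. The wide molasses peak of Wilmar-P covered this position without a summit of its own there, and in laboratory S. pombe no peak covered it. A weaker place lay at the edge of the 2000 bp window, with summits 1996 and 1991 bp upstream and fold enrichment of 3.69 and 2.77 in Wilmar-P on molasses. In laboratory S. pombe it was called at 1992 bp in replicate 2 with 1.70, and at 2001 bp, just outside the window, in replicate 1 with 1.68. It was not called on glucose.

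The distal agl1 peak ranked 130 and 155 in Wilmar-P on molasses and 250 and 278 in laboratory S. pombe on molasses. As a share of each list, which takes in the greater length of the laboratory lists, this was the top 13.5% and 14.4% in Wilmar-P and the top 5.90% and 6.21% in laboratory S. pombe, so the number and the share order the strains oppositely. For the proximal inv1 peak the shares were 14.7% and 14.7%, against 1.13% and 0.960%, in the order of the ranks. In Wilmar-P on glucose the distal peak ranked 80 and 148 and the proximal one 88 and 95. With each list divided by the median of its 228 strongest peaks, the ratio at the distal agl1 place was 1.48 for Wilmar-P over laboratory S. pombe, still above 1 with no overlap, and 0.882 for molasses over glucose, with overlapping replicates. In the body of agl1 the laboratory lists had 4 and 2 weak peaks, with fold enrichment of 1.64 to 2.07, and the Wilmar-P lists had none.

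**Figure D4:**
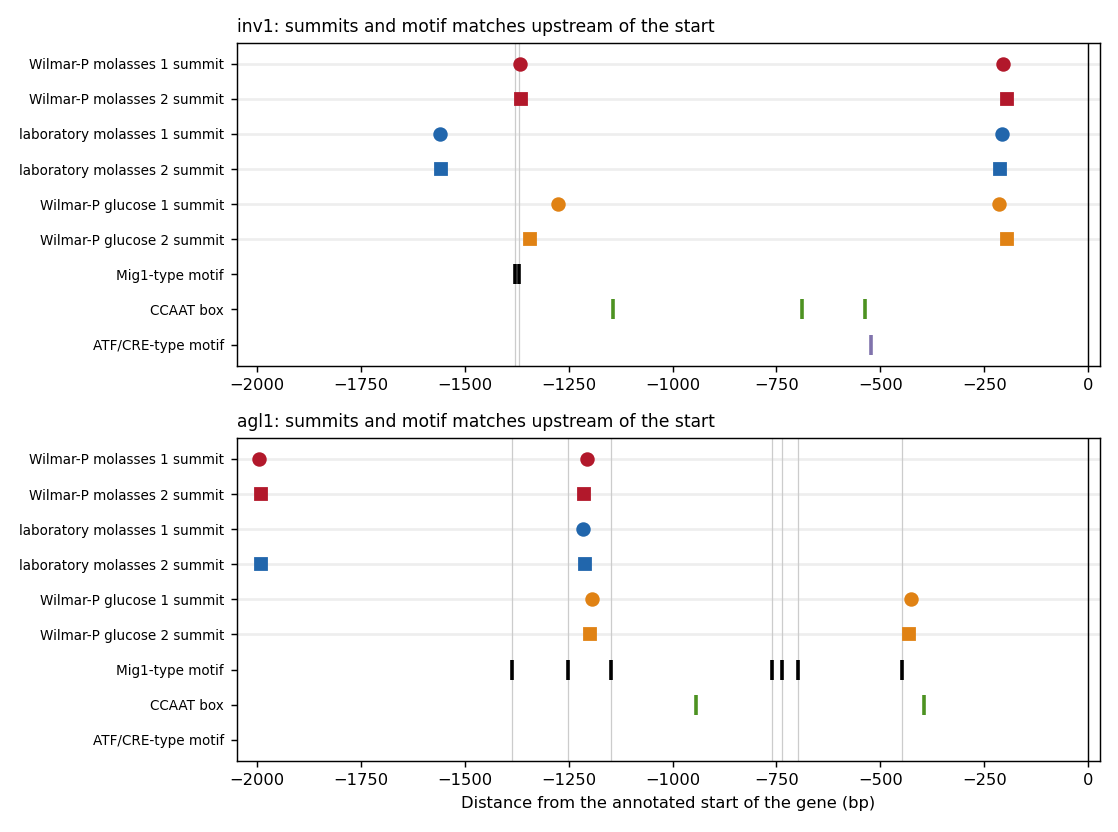
Scr1 summits in the 6 lists and motif matches within 2000 bp upstream of inv1 and agl1, by distance from the annotated start (bp). Grey lines mark Mig1-type matches, 2 upstream of inv1 and 7 upstream of agl1. At the distal inv1 place the Wilmar-P molasses summits sit at the motif pair and the laboratory summits farther upstream.

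The number of Mig1-type matches upstream of agl1 was high for the genome. It had 7 within 2000 bp, inv1 and sut1 had 2 each and mal1 had none. Of 5112 windows of this length upstream of protein-coding genes, 39.8% held at least 1 match, 10.6% at least 2, and 5 windows (0.0978%), that of agl1 included, at least 7, a number chosen after that of agl1 had been seen. Of the 26 summits upstream of the 4 genes in the 6 lists, 12 had a Mig1-type match within 100 bp. These 12 were all at the distal inv1 place and the distal and proximal agl1 places. Each place was counted once per list, so the 12 are not separate sites. Over all summits of a list, those in gene bodies included, this share was 16.4% and 15.8% in Wilmar-P on molasses, 7.24% and 7.39% in laboratory S. pombe on molasses and 26.7% and 32.5% in Wilmar-P on glucose. It was 5.09% in windows of the same length directly upstream of all genes. A match is a description of the letters and not a measured site.

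mal1 (SPBC1683.07, II:152911-155630, plus strand) starts at the same base as the divergent gene urh1. No Wilmar-P list had a peak in its window in either medium. In laboratory S. pombe on molasses it had 2 peaks in replicate 1, with fold enrichment of 1.52 and 1.47, and 3 in replicate 2, with 1.56, 1.55 and 1.79. Every one but that with 1.56, which lay 751 bp upstream in the coding exon of urh1, was in the coding exon of mal1. The strongest peak was not at the same place in the 2 replicates. It lay 1013 bp past the start in replicate 1, ranking 1789 of 4239, and 2027 bp past it in replicate 2, ranking 341 of 4479. At the first of these places the peak of replicate 2 ranked 1741, and at the second that of replicate 1 ranked 1892. The nearest strong Scr1 peak lay in the next gene downstream, the hexose transporter gene ght4, 732 to 842 bp past the end of mal1. It had 46.7 and 37.1 in Wilmar-P on molasses, 7.23 and 6.66 in the laboratory strain and 11.4 and 5.81 in Wilmar-P on glucose.

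sut1 (SPAC2F3.08, I:3935361-3938149, plus strand), the carrier, had no peak in any Wilmar-P list either. In laboratory S. pombe on molasses it had 3 peaks in each replicate, with fold enrichment of 1.62, 1.57 and 1.55 in replicate 1 and 2.09, 1.88 and 1.58 in replicate 2. The upstream one had its summit at the same base in both replicates, 1689 bp upstream and inside a coding exon of kap104, and ranked 3345 of 4239 and 941 of 4479. In Wilmar-P on molasses the nearest peaks lay 544 and 543 bp past the end of sut1, with fold enrichment of 2.55 and 2.44.

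**Figure D5:**
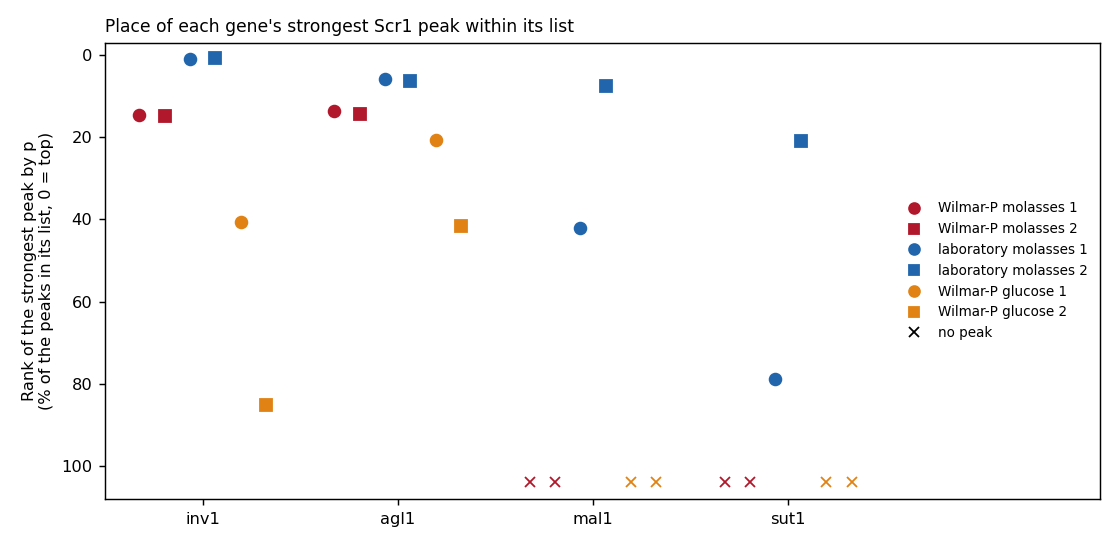
Rank by p of the strongest peak of each gene as a percentage of the peaks in its list (0 is the top), by group, with circles for replicate 1 and squares for replicate 2, and crosses for lists with no peak. inv1 stands highest in the laboratory lists, and mal1 and sut1 have a place in those lists alone.

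For the strongest peak by p of each gene, mean fold enrichment of inv1 was 10.9 ± 2.65 in Wilmar-P on molasses, 8.22 ± 0.0776 in laboratory S. pombe on molasses and 4.03 ± 1.21 in Wilmar-P on glucose (SD, n = 2 each). The strongest peak was the proximal one in Wilmar-P on molasses and the distal one, nearer to the start of SPCC191.10, in the other groups. For agl1 the means were 15.2 ± 4.21, 2.53 ± 0.0326 and 7.00 ± 0.466 in the same order (SD, n = 2 each), the last over the distal peak of replicate 1 and the proximal peak of replicate 2. The ratio of Wilmar-P over laboratory S. pombe on molasses was 1.33 for inv1 and 5.99 for agl1, where the median over the 763 genes with a peak in all 4 lists was 2.25. Of those genes, 27.5% had a smaller ratio than inv1 and 91.9% a smaller one than agl1. The ratio of molasses over glucose in Wilmar-P was 2.71 for inv1 and 2.17 for agl1, where the median over 249 genes was 2.99. On the deposited scale both genes were higher in Wilmar-P on molasses with no overlap against either of the other groups, as were 83% of the 763 genes and 94% of the 249 genes, so this order was that of most genes.

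The genes whose strongest peaks had the most similar ranks over the 6 lists, by the mean absolute difference of their percentiles, were imt2 and SPCC4F11.05, which share a peak, and SPBP23A10.11C for inv1, with differences of 3.12, 3.12 and 4.55 percentile points. For agl1 they were ght5, a hexose transporter gene in a segment that Wilmar-P carries as a duplication, with 1.94, atd1 with 2.36 and cgs2, which encodes the cyclic AMP phosphodiesterase, with 2.57. ght5 had fold enrichment of 15.7 and 11.7 in Wilmar-P on molasses, 3.13 and 2.41 in the laboratory strain and 6.30 and 5.94 in Wilmar-P on glucose. For mal1 and sut1, which had peaks in 2 lists alone, the nearest were vps10, thi20 and pca1, and alg2, psf2 and arg6.

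Of 11 other genes for enzymes that release sugars from larger carbohydrates, 4 had a peak in both replicates in Wilmar-P on molasses (inv2, aah1, aah3 and ntp1), 9 in laboratory S. pombe on molasses and none in Wilmar-P on glucose, against 17.6%, 69.3% and 4.93% of all genes. inv2, an invertase-like gene, had 12.0 and 8.94 in Wilmar-P on molasses and 3.24 and 2.01 in laboratory S. pombe. aah1, an alpha-amylase homolog, had 19.7 and 18.1 in Wilmar-P on molasses and 3.04 and 3.14 in laboratory S. pombe. Unlike inv1 and agl1, none of these 11 genes had a peak in both glucose replicates. With 4.93% of all genes called there, none of 11 lies near the share of all genes. In the 10 genes for hexose uptake and phosphorylation (ght1 to ght8, hxk1 and hxk2), by contrast, 10 had a peak in both replicates in Wilmar-P on molasses, 10 in the laboratory strain and 8 in Wilmar-P on glucose. With upstream summits alone the counts were 9, 7 and 7 of these 10, and 4, 5 and 0 of the 11. The shares of all genes were then 14.3%, 36.8% and 4.36%. With lists of equal length as well, the counts were 6, 6 and 7, and 2, 1 and 0, against 4.56%, 3.32% and 4.03% of all genes.

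Enrichment at the strongest of the hexose genes exceeded that at inv1 and agl1. hxk2, a hexokinase gene, had 82.0 and 60.1 in Wilmar-P on molasses, 22.2 and 20.1 in the laboratory strain and 17.6 and 10.3 in Wilmar-P on glucose. ght8, a hexose transporter gene, had 77.1 and 60.3, 31.3 and 25.2, and 16.5 and 9.28 in the same order. In each of the 6 lists both genes thus stood above inv1 and agl1 in fold enrichment.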

How the data were processed

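ChIP-seq of TAP-tagged Scr1 was analysed in 6 samples, 2 per group as labeled. The authors sequenced either single or paired ends, trimmed adapters (cutadapt 1.9.1), aligned reads with Bowtie2 2.3.1 to ASM294v2 and called peaks with MACS2 2.1.1 against an input for each condition, per the submitters' processing notes and the methods. The lists used are the deposited ones of each replicate, before the reproducibility step across replicates. Each deposited list gives positions, a fold enrichment ratio, −log10 p and −log10 q as computed by the authors, and no read counts, so depth is unknown. The smallest −log10 q in any list was 2.00. Peaks on the unplaced and mating type sequences were left out (1 to 17 per list). No column of other samples was present.

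Genes came from the RefSeq annotation of ASM294v3, whose chromosomes end at or past every peak. Summits were assigned to genes with Python 3.11.15, pandas 2.3.3 and numpy 2.4.6. The assignment and motif search were checked on simulated data. The members, motif letters and lists were chosen with earlier results of these data known. Named were the 4 genes, the genes nearest their peaks, 3 genes per member of most similar rank percentile (100 for the first peak, 0 for none), and up to 4 members per list called in both replicates. Where 1 peak lay in the windows of several genes it counted for each. Alternatives were a 1000 bp window, upstream summits alone, overlap of 1 bp, −log10 q of at least 5, lists of equal length, single replicates, another choice of the strongest peak, division by the median of the top peaks, and a motif window of 250 bp. The sequence of 1 further stretch upstream of agl1 is not reported here.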

Additional observations from a re-analysis of the deposited data

How the results depend on the processing

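The count of the 4 genes with a peak in both replicates was 1 in Wilmar-P on molasses with a window of 1000 bp, which leaves out the distal agl1 summit, and in laboratory S. pombe 1 with lists of equal length, 3 with −log10 q of at least 5 and 3 with upstream summits alone. It was unchanged by leaving out either replicate. Divided by the median of the top peaks of each list, the Wilmar-P over laboratory ratio was 0.329 for inv1, turning its direction, and 1.48 for agl1, and the molasses over glucose ratio was 0.927 for inv1 and 0.743 for agl1, where the strongest peak is not at 1 place in all lists. The distal inv1 place joins summits that lay 192.5 bp apart between the strains, so it is the same place only in this wide sense. At the same place in every list (alternatives added after seeing the data), the deposited inv1 ratio between strains was 1.76 (proximal). Scaled as well, the ratio between strains was 0.435 (inv1 proximal), 0.369 (inv1 distal) and 1.48 (agl1 distal). The ratio between media was then 1.05, 1.04 and 0.882. Replicates of the media overlapped at each place, so no direction between media can be read from these values. Without 1 replicate of each group the ratios ranged from 1.11 to 1.55 (inv1) and 4.86 to 7.10 (agl1) between strains, and from 2.62 to 2.85 (inv1) and 1.83 to 2.48 (agl1) between media. The share of all genes with a peak in both replicates was 5.26% in Wilmar-P on molasses and 4.05% in laboratory S. pombe with lists of equal length, 36.8% in laboratory S. pombe with upstream summits alone, and 8.68% and 9.04% in Wilmar-P on glucose without replicate 2 and with a peak in either replicate. With the Mig1-type and the wider letters counted together, 19 of the 26 upstream summits had a match within 100 bp.

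No paired test was made, since 2 pairs cannot give an exact p below 0.5. With the replicate number as a block, the geometric means of the pair ratios were 1.31 (inv1) and 5.87 (agl1) between strains and 2.73 (inv1) and 2.13 (agl1) between media, and changed no direction. The lists hold no depth, so how far depth sets the number of weak peaks and the level of fold enrichment cannot be told apart from strain and medium.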

Other observations

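Beyond the Mig1-type letters, 3 other motifs were searched within 2000 bp upstream of the 4 genes on both strands. CCAAT matched 3 times upstream of inv1, 2 times upstream of agl1, 6 times upstream of mal1 and 4 times upstream of sut1, and 98.7% of all such windows held at least 1. TGACGT, the core of sites of the ATF/CREB family, matched 1 time upstream of inv1 and 1 time upstream of sut1, against 27.6% of all windows. CCCCTC, a letter string of the Rst2 activator, matched none of the 4 windows, against 16.7% of all windows. No match of one motif overlapped a match of another in these windows.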
